A study of Homo sapiens with 8 samples.

Results

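The genes described are 36 aminoacyl-tRNA synthetases, 20 that charge tRNAs in the cytosol and 16 nuclear-encoded enzymes of mitochondria, whose symbols end in 2. They were chosen by name, by mapping transcript identifiers to gene symbols and keeping for each gene the 3′ end segment with the most reads, out of 15378 genes with a read. All 36 were measured in each of 8 libraries. Newer annotations write most of the cytosolic genes with a final 1 (AARS1 for AARS).

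THP-1 is a human monocytic line from an acute myeloid leukaemia. Its cells were pulsed for 12 h with 30 µM 4-thiouridine (4sU), a uridine analogue that enters new RNA, and then moved to medium with 3 mM uridine, which displaces the label. SLAM-seq alkylates the incorporated 4sU so that it is read as a T-to-C change, and 3′ end libraries were made with 1 library for each chase time (0 h, 20 min, 40 min, 1 h, 2 h, 8 h, 12 h) and 1 library from cells without 4sU. The labels name no separate cultures for the times, so p-values measure only the scatter of 7 chase libraries about a line in time, and no test between single conditions was possible.

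Each aminoacyl-tRNA synthetase joins an amino acid to the tRNAs that read its codons, and so supplies the ribosome with charged tRNA. In the cytosol of animal cells several of these enzymes sit together in the multi-synthetase complex, held by small scaffold proteins, while others work alone. Mitochondria translate their own few messages with a separate set of enzymes, made in the cytosol and imported, and only glycine and lysine are charged in both places by the product of 1 gene each, GARS and KARS. Many cytosolic synthetase genes belong to the amino-acid response, in which the factor ATF4 binds composite sites in promoters when amino acids run short.

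Reads assigned to genes numbered 2916032 in the library without 4sU and 8301031 to 11224013 in the chase libraries. All 11 monocytic markers looked for (among them CD14, LYZ and MPO) reached 1 CPM (a read count scaled to the library's gene reads) in the median chase library, and their summed level was 2376 CPM at 0 h, 1696 CPM at 8 h and 1556 CPM at 12 h, but 785.7 CPM without 4sU. Much of the monocytic sum was ELANE, with a median of 1052 CPM over the chase libraries. LYZ had 401.9 CPM, CD14 22.4 CPM and MPO 2.66 CPM. Of lymphoid markers 2 of 6 reached 1 CPM, and no erythroid or epithelial marker did. A member had 33 to 3656 reads in a chase library and at least 9 without 4sU. CPM use the library's total of gene reads, and because reads come from 3′ ends they are not scaled by transcript length. Less RNA per cell and fewer cells that express a gene cannot be told apart in these bulk samples.

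The promoters of the members were searched for TGATGNAA, the core of the composite site of the amino-acid response, on both strands of windows from 250 bases before to 50 bases after each RefSeq gene start (GRCh38.p14). The search found 30 of the 36 members in the RefSeq table, and DARS, LARS, VARS, YARS, AARS2 and VARS2 were not matched. The motif was present in 7 of 16 matched cytosolic members (43.8%), in 1 of 14 mitochondrial members (7.1%) and in 4.46% of all 27305 genes of the table (3.62% of its 35116 windows). A match is a description of the letters and no evidence of binding. The 30 bases around each match are shown because several of these genes have the largest changes in level described further on. They are written 5′ to 3′ on the strand that carries the motif, and the capitals mark it.
AARS: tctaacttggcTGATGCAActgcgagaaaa
CARS: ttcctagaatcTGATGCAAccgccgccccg
GARS: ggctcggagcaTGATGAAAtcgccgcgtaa
IARS: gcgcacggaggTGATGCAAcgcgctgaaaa
MARS: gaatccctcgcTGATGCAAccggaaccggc
NARS: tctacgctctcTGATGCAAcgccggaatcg
TARS: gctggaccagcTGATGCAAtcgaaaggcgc
YARS2: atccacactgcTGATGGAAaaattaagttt

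The AARS stretch is chr16:70289675-70289704 (plus strand), that of CARS chr11:3057407-3057436 (plus) and that of TARS chr5:33440956-33440985 (minus). GARS has its stretch at chr7:30594834-30594863 (minus), IARS at chr9:92293692-92293721 (plus), MARS at chr12:57488053-57488082 (minus), NARS at chr18:57621804-57621833 (minus) and YARS2 at chr12:32756076-32756105 (minus). In NARS and YARS2 the motif lay on the strand of the gene, and in the other 6 on the opposite strand. In 6 of the 8 the motif began within 33 bases of the gene start, and in AARS and YARS2 it began 187 and 197 bases before it. In CARS and MARS it spans the start itself, and in TARS and NARS it lies just inside the transcribed bases. With the C that follows TGATG, 6 of the cytosolic matches read TGATGCAA, while GARS reads TGATGAAA and YARS2 TGATGGAA.

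HARS and HARS2, the cytosolic and mitochondrial histidyl enzymes, are neighbours that are transcribed away from each other. Their RefSeq starts on chromosome 5 lie at 140691370 (HARS, minus strand) and 140691455 (HARS2, plus strand), and 84 bases stand between them (chr5:140691371-140691454, plus strand, no part in capitals). The stretch is 59.5% G and C.
HARS to HARS2: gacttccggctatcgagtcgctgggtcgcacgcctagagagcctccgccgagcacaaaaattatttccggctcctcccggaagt

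Label was lost from every member that could be tested. The decline of labelled reads relative to the gene's own total was called in 20 of 20 cytosolic and 15 of 15 mitochondrial members (edgeR quasi-likelihood, Benjamini-Hochberg adjusted p under 0.05), against 95.3% of 9402 genes tested, so the count of members is near the background. NARS2, the mitochondrial asparaginyl enzyme, had too few reads for this test. The largest adjusted p in the edgeR fit was 0.00722 for VARS, and that call was lost without the 12 h library (adjusted p = 0.0958). Without 4sU, no labelled read was found among 7248 reads of cytosolic and 1430 reads of mitochondrial members, which allows shares of up to 0.0414% and 0.21%.

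At the end of the pulse the cytosolic members carried less label than most genes. The labelled share at 0 h had a median of 27.0% over the 20 cytosolic members, 38.5% over the 16 mitochondrial members and 44.5% over all genes tested. It was below the all-gene median in 17 cytosolic and 10 mitochondrial members. Among the cytosolic enzymes VARS (valyl) was lowest at 5.25% (95% exact interval 4.09 to 6.64%, 1256 reads) and NARS (asparaginyl) highest at 52.6% (50.3 to 54.8%, 1963 reads). Among the mitochondrial enzymes CARS2 (cysteinyl) was lowest at 11.2% (8.18 to 14.9%, 365 reads) and MARS2 (methionyl) highest at 69.6% (59.7 to 78.3%, 102 reads). These intervals cover counting error only, because no chase time has a repeated library. They take every read as a separate molecule, which could not be checked, since no molecular identifiers are given in the sources used here. A read can be called labelled only where it holds T positions. The last 250 bases of the members' transcripts had a median T content of 25.8% (cytosolic) and 26.8% (mitochondrial) against 31.6% over all genes, with VARS at 15.6% and MARS2 at 44.0%. The part of T content in the shares was not tested.

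**Figure D1:**
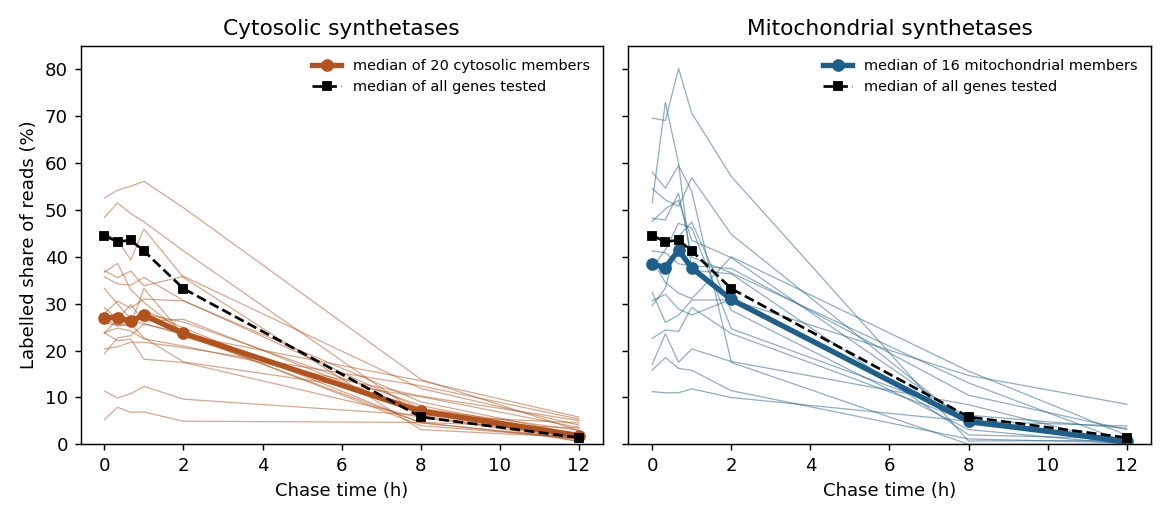
Labelled share of reads (%) against chase time (h) for the 20 cytosolic (left) and 16 mitochondrial members (right). Thin lines are genes, thick lines their median and the dashed line the median of all genes tested, which starts at 44.5%, above the medians of 27.0% and 38.5% of the members.

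Messages of the cytosolic enzymes kept their label longer than those of most genes. Half-lives of the labelled share were estimated from a single exponential per gene and count as resolved under the limits given with the methods. The median was 3.68 h over 20 cytosolic members (quartiles 3.32 and 4.99 h), 2.98 h over 15 mitochondrial members (2.34 and 3.84 h) and 2.72 h over 8831 resolved genes. In 17 of 20 cytosolic and 9 of 15 mitochondrial members the half-life exceeded the all-gene median. On the log2 scale the mitochondrial median lay -0.30 from the cytosolic one. At 8 h a median of 27.5% of the early share was left in cytosolic members, 14.7% in mitochondrial members and 14.1% over all genes, where the early share pools the 0 h, 20 min and 40 min libraries. By 12 h this was 6.19%, 1.11% and 3.14%. The fall was not a single exponential: from the 0 to 2 h libraries alone the cytosolic median was 7.37 h with 9 members resolved, and from the 1 to 12 h libraries it was 3.21 h.

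**Figure D2:**
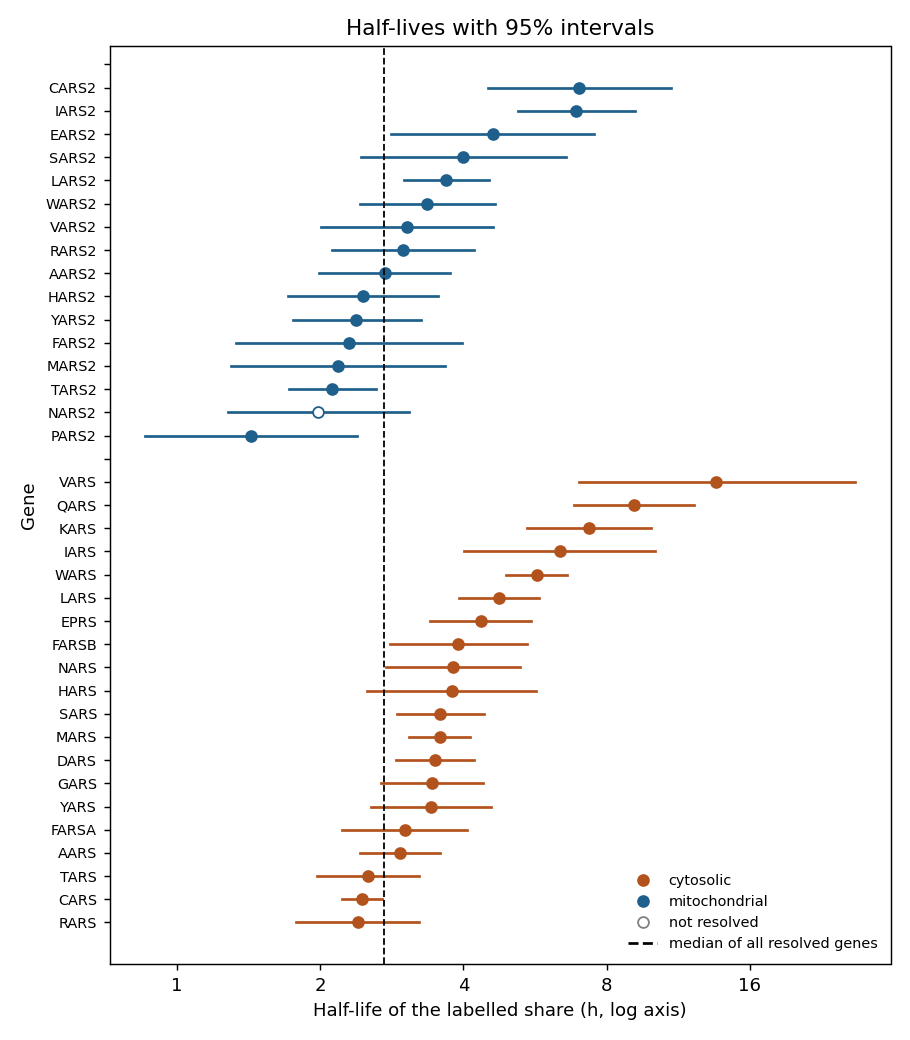
Half-life of the labelled share (h, log axis) for each member, with bars for the 95% interval of the fit. The dashed line is the median of all resolved genes (2.72 h), and points of 17 of the 20 cytosolic and 9 of the 15 resolved mitochondrial members lie to its right.

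The 3 slowest cytosolic members were VARS, QARS and KARS. VARS (valyl; segment start chr6:31745295, hg19) held labelled shares of 5.25%, 7.87%, 6.83%, 6.89%, 4.91%, 4.65% and 3.49%, in the order of the chase times (0 h, 20 min, 40 min, then 1, 2, 8 and 12 h), which the lists that follow keep. The 12 h value was the lowest, and the half-life was 13.6 ± 4.65 h (SE). QARS (glutaminyl; chr3:49133365) held 11.4%, 9.87%, 10.8%, 12.3%, 9.62%, 6.17% and 4.55% in the same order, with a half-life of 9.12 ± 1.35 h. All 5 libraries to 2 h stood above both late ones. KARS (lysyl, serving both compartments; chr16:75661656) held 20.3%, 20.8%, 21.8%, 21.8%, 20.6%, 12.5% and 5.37%, and its half-life of 7.35 ± 1.13 h became 10.3 h without the 12 h library.

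By the labelled share, RARS, CARS and TARS were the fastest cytosolic members. The share of RARS (arginyl; chr5:167946196) was 45.1%, 43.5%, 39.4%, 45.9%, 35.6%, 3.11% and 1.43% from 0 to 12 h, a half-life of 2.40 ± 0.363 h. CARS (cysteinyl; chr11:3022159) had 36.7%, 38.6%, 33.0%, 30.3%, 23.7%, 3.97% and 1.32%, a half-life of 2.45 ± 0.123 h. TARS (threonyl; chr5:33467814) had 48.4%, 51.5%, 49.2%, 47.5%, 41.3%, 6.14% and 0.603%, a half-life of 2.52 ± 0.317 h. In CARS the share was already lower at 1 and 2 h than in the first 3 libraries, and in TARS and RARS the 2 h value was the lowest up to that time. A fit to labelled CPM changed this order: RARS stayed shortest at 2.55 h, but CARS (3.97 h) and TARS (3.46 h) were then longer than FARSA and YARS (3.24 h each).

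The 8 enzymes of the multi-synthetase complex had a median half-life of 4.55 h and the 12 cytosolic enzymes outside it 3.51 h. The order within the complex was QARS, KARS, IARS (isoleucyl, 6.38 h, interval 4.02 to 10.1 h), LARS (leucyl, 4.75 ± 0.468 h), EPRS (glutamyl and prolyl in a single chain, 4.35 ± 0.539 h), MARS (methionyl, 3.57 ± 0.266 h), DARS (aspartyl, 3.49 ± 0.333 h) and RARS. The 95% intervals of neighbours in this order overlapped throughout. Outside the complex WARS (tryptophanyl, an interferon-induced gene) followed VARS with 5.70 ± 0.426 h. FARSB and FARSA, the subunits of the phenylalanyl enzyme, had 3.90 ± 0.661 h and 3.01 ± 0.465 h. NARS (3.80 h), HARS (3.78 h), SARS (seryl, 3.57 h), GARS (glycyl, 3.44 h), YARS (tyrosyl, 3.42 h) and AARS (alanyl, 2.94 h) were all below WARS. The annotation used for names places exons of WDR55, DDIT3 and an antisense gene over the 3′ ends of HARS, MARS and WARS on the other strand. These 3 values are uncertain, because the sources used here give no strand setting for the counting.

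By the labelled share, the mitochondrial members at the long end were CARS2, IARS2 and EARS2. CARS2 (chr13:111293764) had 41 labelled of 365 reads at 0 h (11.2%), nearly the same share at 20 and 40 min, and then 11.8%, 9.97%, 4.91% and 3.90%, a half-life of 7.01 ± 1.59 h. IARS2 (isoleucyl; chr1:220320978) had 32.4%, 26.0%, 27.6%, 30.8%, 30.8%, 14.7% and 8.54%, a half-life of 6.91 ± 0.997 h. EARS2 (glutamyl, which in mitochondria also loads the tRNA for glutamine; chr16:23533335) had 39.3%, 34.5%, 32.2%, 31.0%, 40.0%, 15.6% and 1.93%. For CARS2 and IARS2 35.2% and 29.6% of the early share was left at 12 h, against 5.47% for EARS2. The half-life of EARS2, 4.61 ± 1.16 h, was 7.04 h without the 12 h library.

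PARS2, TARS2 and MARS2 lost label fastest. PARS2 (prolyl; chr1:55222571) had 58.1%, 54.7%, 59.5%, 53.9% and 17.5% to 2 h, and no labelled read among 84 at 8 h and 65 at 12 h, which allows shares of up to 3.57% and 4.62%. Its share at 2 h lay below all earlier ones, and its half-life, 1.43 ± 0.373 h, was the shortest of the 35 resolved. TARS2 (threonyl; chr1:150479541) had 15.8%, 18.5%, 16.2%, 15.8%, 11.4%, 1.13% and 0.317%, a half-life of 2.12 ± 0.227 h. MARS2 (chr2:198571912) had 69.6%, 69.1%, 80.2%, 70.7%, 57.1%, 0.685% and 0.813%, a half-life of 2.18 ± 0.574 h. TARS2 and MARS2 had nearly equal half-lives from shares at 0 h that were among the lowest and the highest of the mitochondrial members.

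Of the other mitochondrial enzymes, FARS2 (phenylalanyl, 2.30 h), YARS2 (tyrosyl, 2.38 h), HARS2 (histidyl, 2.46 h) and AARS2 (alanyl, 2.73 h) lay near the all-gene median. RARS2 (arginyl, 2.98 h), VARS2 (valyl, 3.05 h), WARS2 (tryptophanyl, 3.35 h), LARS2 (leucyl, 3.68 h) and SARS2 (seryl, 4.00 h) lay above it. At 12 h, 5 of the 16 had no labelled read (FARS2, PARS2, SARS2, VARS2 and YARS2), which allows shares of up to 1.2% (YARS2) to 4.62% (PARS2). NARS2, with 33 to 88 reads a chase library, had 17 labelled of 33 reads at 0 h, 27 of 37 and 24 of 40 at 20 and 40 min, 13 of 35 at 1 h, 16 of 44 at 2 h, 1 of 50 at 8 h and 1 of 88 at 12 h. Its share was lower at 1 and 2 h than in the first 3 libraries, and lower again at 8 h. Its fitted half-life of 1.98 h is not counted as resolved. The 3′ end of SARS2 overlaps another gene on the same strand in the annotation, and its reads cannot be split between them.

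For each amino acid with an enzyme in both compartments the half-lives were set side by side, EPRS serving for both EARS2 and PARS2 and the catalytic subunit FARSA for FARS2. Of 16 pairs 15 had both half-lives resolved, and the mitochondrial value was lower in 10. The 95% interval of the ratio, mitochondrial over cytosolic, lay below 1 in 3 pairs and above 1 in 1, and it included 1 in the other 11. VARS2 had a ratio of 0.224 to VARS (0.102 to 0.492), PARS2 of 0.329 to EPRS (0.187 to 0.58) and WARS2 of 0.588 to WARS (0.412 to 0.841). The VARS2 shares to 2 h were 22.6%, 24.4%, 24.1%, 29.2% and 23.6%, each above that of VARS. At 8 h VARS2 had 4.96%, with a 95% exact interval (2.02 to 9.96%) that includes the 4.65% of VARS. At 12 h none of 85 VARS2 reads was labelled, which allows up to 3.53%.

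The cysteinyl pair ran the other way, with a ratio of 2.87 (1.82 to 4.51) of CARS2 to CARS. A fit to labelled CPM gave a ratio of 1.29 (0.735 to 2.25), and the interval then included 1. The divergent histidyl genes, which share the stretch printed above, had labelled shares at 0 h of 54.6% (HARS2) and 19.3% (HARS). Their half-life ratio was 0.651, with an interval (0.377 to 1.12) that included 1. From the 1 to 12 h libraries alone it was 0.625 (0.448 to 0.871). In that fit the intervals of FARS2 (0.495 to 0.892) and MARS2 (0.275 to 0.834) also lay below 1, while that of WARS2 (0.359 to 1.0) reached 1. The split of the pairs thus depends on the fit.

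**Figure D3:**
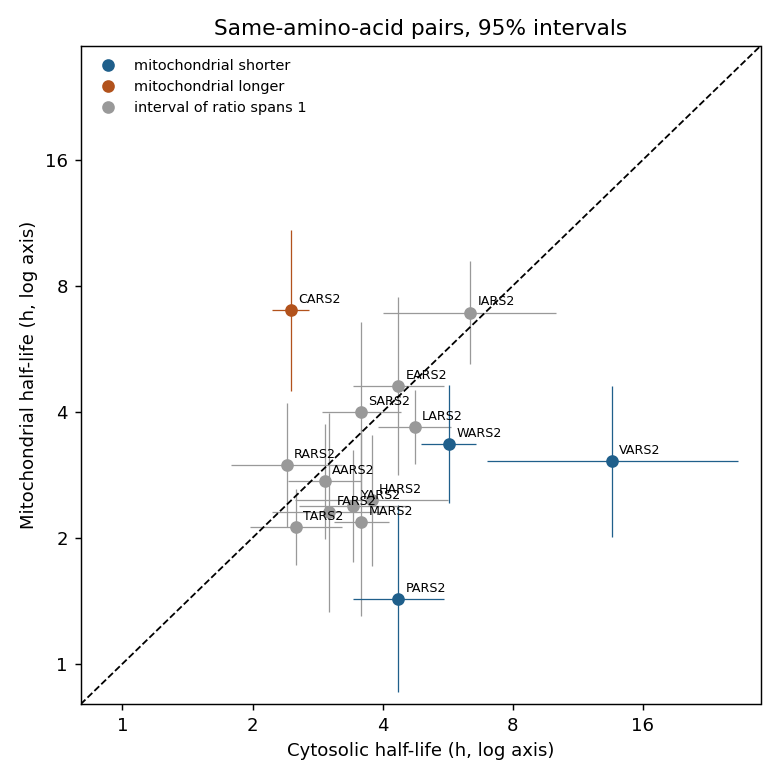
Half-life of the mitochondrial enzyme against that of the cytosolic enzyme for the same amino acid (h, both axes log), with 95% intervals, for 15 pairs labelled by the mitochondrial gene. Blue points (VARS2, PARS2, WARS2) have a ratio below 1, the orange point (CARS2) above 1, and grey points have intervals that include 1, the dashed line.

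Total levels of some members changed while label was lost. In the edgeR fit with TMM scaling, 6 cytosolic members rose over the chase and 4 fell, and 6 mitochondrial members rose and 1 fell, with 10 and 9 not called. Over 10643 genes 27.7% rose and 23.8% fell, so the shares of cytosolic members called are near the background in both directions. The median fitted change over 12 h was 0.16 (log2) for cytosolic and 0.32 for mitochondrial members against 0.03 for all genes. Scaling moves these counts: with library totals alone 11 cytosolic members rose and 2 fell, 68.0% of all called genes rose instead of 53.8%, and the all-gene median was 0.18. Of the called changes, 7 of 10 cytosolic and 3 of 7 mitochondrial ones were called whichever single library was left out.

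TARS had the largest called rise of the cytosolic members. Its level was 348.4 CPM without 4sU, and 130.8, 131.0, 139.8, 148.5, 151.6, 275.7 and 259.5 CPM from 0 to 12 h. Both late libraries lay above all earlier chase libraries, and the change over 12 h was 0.99 ± 0.11 (log2, SE; edgeR adjusted p = 7.31e-06). AARS, at 179.7, 191.9, 178.5, 183.9, 186.4, 290.5 and 264.2 CPM, rose by 0.55 ± 0.10 (edgeR adjusted p = 0.000337). DARS (0.43), FARSA (0.38), GARS (0.37) and SARS (0.32) rose as well on the log2 scale, but the calls for DARS and FARSA were lost without the 12 h library, which left changes of 0.16 and 0.10. The SARS call was lost when the 40 min, 1 h or 8 h library was left out, with changes of 0.30, 0.29 and 0.25 (edgeR adjusted p = 0.0592, 0.0502 and 0.0542).

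CARS had the highest level at 8 h relative to the early libraries, and its call depended on the fit. Its level was 61.7 CPM without 4sU and over the chase 45 CPM at 0 h, then 51.7, 49.6, 65.3, 85.5, 132.3 and 91.5 CPM. It was higher at 1 h and 2 h than at any earlier time and highest at 8 h. The change of 1.01 ± 0.38 was not called in edgeR with TMM (adjusted p = 0.0731). It was called by DESeq2 (0.98, adjusted p = 0.0254), in edgeR with library totals alone (1.17, 0.0475), and in edgeR without the 2 h library (1.08, 0.0387) or the 12 h library (1.91, 0.00665).

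IARS, NARS, QARS and YARS fell. NARS stood at 225.4, 226.2, 225.2, 223.9, 221.8, 221.7 and 185.6 CPM, and changed by -0.37 ± 0.08 in log2 (edgeR adjusted p = 0.000926). In CPM only the 12 h library was lower, while with TMM factors, as in the fit, the 8 h level was 0.861-fold the early one. QARS went from 239.2, 241.3, 227.4, 232.9 and 224.4 CPM up to 2 h to 217.9 and 201.2 CPM (-0.37 ± 0.07, edgeR adjusted p = 0.000904). IARS had 92.0, 99.8, 101.3, 98.2, 84.0, 74.3 and 85.3 CPM (-0.43 ± 0.13, edgeR adjusted p = 0.0106). YARS changed by -0.30, and with library totals alone the falls of IARS and YARS were not called (adjusted p = 0.0596 and 0.141).

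Among mitochondrial members NARS2, AARS2, FARS2, LARS2, TARS2 and IARS2 rose. NARS2 had 3.79, 4.20, 4.19, 3.88, 4.90, 4.46 and 10.6 CPM over the chase, and its rise of 1.05 ± 0.30 rests on the 12 h library (0.01 without it, edgeR adjusted p = 0.994). AARS2 had 23.6, 19.9, 16.4, 22.5, 18.7, 30.1 and 35.1 CPM (0.69 ± 0.18, edgeR adjusted p = 0.00523), and FARS2 11.2, 12.2, 13.9, 15.0, 10.1, 20.0 and 19.1 CPM (0.61 ± 0.21, adjusted p = 0.0253). Both genes were highest in the late libraries, and both calls were lost without the 12 h library (changes of 0.63 and 0.81, edgeR adjusted p = 0.0957 and 0.055), that of FARS2 also without the 0 h or the 8 h library. LARS2 (0.56) and TARS2 (0.53) were called with any library left out, and IARS2 (0.36) was not called without the 12 h library.

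CARS2 was the only mitochondrial member called lower with all 7 libraries, and without the 12 h library EARS2 was called as well (-0.71 ± 0.22, edgeR adjusted p = 0.0161). CARS2 stood at 41.9, 39.3, 39.1, 47.8, 33.5, 30.8 and 27.8 CPM, with every library from 2 h on below the earlier ones (-0.76 ± 0.16 in log2, edgeR adjusted p = 0.00109). PARS2, EARS2, WARS2 and HARS2 had fitted changes of -0.26, -0.25, -0.28 and -0.12 that were not called, and RARS2, SARS2, MARS2, VARS2 and YARS2 had changes of 0.52, 0.33, 0.32, 0.15 and 0.11 that were not called either. Of the cytosolic members without a call, HARS, RARS, MARS, FARSB, EPRS and LARS had changes of 0.25, 0.29, 0.18, 0.13, 0.12 and 0.04, and KARS, VARS and WARS had -0.04, -0.13 and -0.17.

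**Figure D4:**
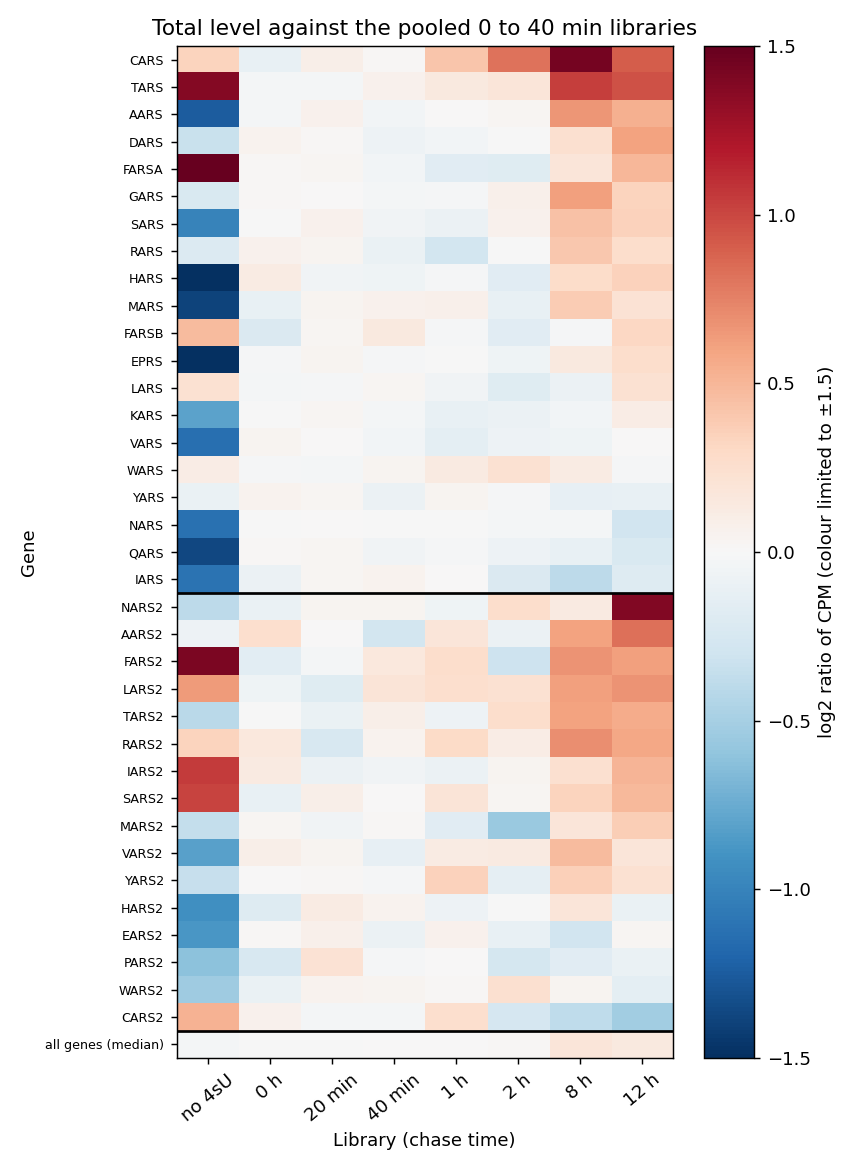
Total level of each member in each library as the log2 ratio of its CPM to the pooled 0, 20 and 40 min libraries, with cytosolic members above, mitochondrial members in the middle and the median of all genes tested in the last row. Colours stop at ±1.5. CARS, TARS and AARS are darkest red at 8 h among cytosolic members, CARS2 is blue at 8 and 12 h, and the all-gene median is 0.18 at 8 h.

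At 8 h, 4 of 20 cytosolic members (CARS 2.71-fold, TARS 2.06, AARS 1.59 and GARS 1.53) and 5 of 16 mitochondrial members (RARS2 1.62, FARS2 1.59, LARS2, TARS2 and AARS2 near 1.5) stood at least 1.5-fold above the pooled 0 to 40 min libraries in CPM. This holds for 23.9% of 10643 genes, and the all-gene median fold was 1.13. With TMM factors, which bring that median to 0.994, CARS (2.38) and TARS (1.80) alone passed among all 36, against 15.0% of genes. That scaling was added after the values were seen, and no test applies to a single library.

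Unlabelled reads hold RNA made during the chase, RNA that escaped the pulse and labelled RNA whose reads showed too few T-to-C changes. At 8 h they stood at 1.49-fold their early level in the median cytosolic member. The median was 2.09-fold for mitochondrial members and 1.95-fold over all genes. CARS had 28.5, 31.8, 33.2, 45.5, 65.2, 127 and 90.4 unlabelled CPM over the chase, 4.07-fold at 8 h, and TARS was 3.84-fold. In NARS, labelled reads went from 118.5 CPM at 0 h to 30.7 CPM at 8 h as unlabelled NARS went from 106.9 to 190.9 CPM. For QARS and VARS the unlabelled level at 8 h was 0.971-fold and 0.974-fold the early one. Labelled CPM at 8 h was below its early level in all 20 cytosolic and all 16 mitochondrial members. Over all genes tested a median of 18.6% of the early labelled CPM was left at 8 h (upper quartile 38.3%). Such a fall is thus shared by most genes and is no trait of the members.

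**Figure D5:**
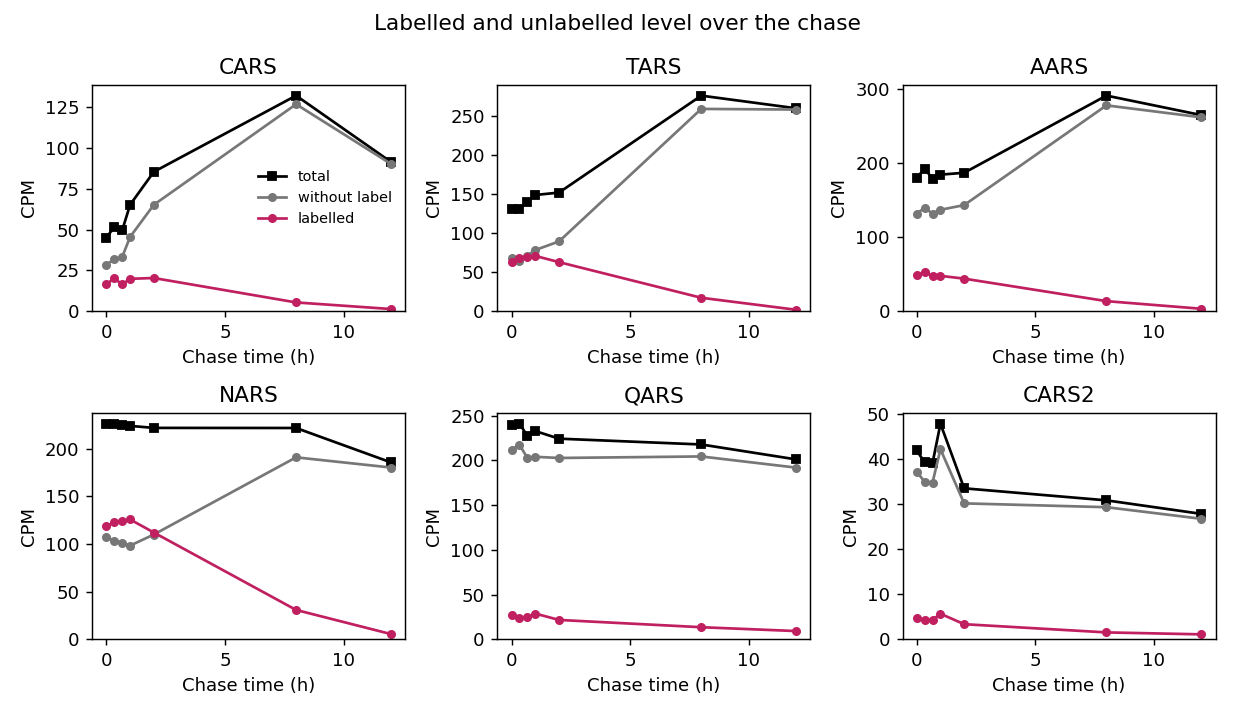
Total (black), unlabelled (grey) and labelled (red) CPM against chase time (h) for 6 members, 1 library per point. The unlabelled level of CARS, TARS and AARS climbs to 8 h, that of NARS crosses the labelled level after 2 h, and those of QARS and CARS2 end below their start.

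The library without 4sU differed from the 0 h library in 8 cytosolic members that were at least 2-fold higher at 0 h and in 2 that were at least 2-fold lower. No mitochondrial member was 2-fold higher and 2 were 2-fold lower, against 20.8% of 10849 genes higher and 18.1% lower. With TMM factors, also added later, 9 cytosolic members were higher, against 21.6% of genes, and the counts lower were 2 and 2, against 16.9%. HARS was highest, at 20.2 CPM without 4sU and 81.4 CPM at 0 h (4.02-fold), followed by EPRS (2.99), QARS (2.62), MARS (2.41), AARS (2.34), VARS (2.25), NARS (2.18) and IARS (2.03). FARSA was lowest, at 798.7 CPM without 4sU and 217.8 CPM at 0 h (0.273-fold), followed by FARS2 (0.338), TARS (0.375) and SARS2 (0.461). The subunits of the phenylalanyl enzyme thus stood at 798.7 and 99.5 CPM without 4sU and at 217.8 and 61.7 CPM at 0 h (FARSA and FARSB). The summed monocytic markers also stood at 785.7 CPM without 4sU and 2376 CPM at 0 h, and their part in these differences was not tested. With 1 library on each side, of unequal depth, effects of 4sU and of the library cannot be told apart.

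Genes that act beside the synthetases were taken from lists of known function, whose counts stand against 95.3% of all genes with a called label decline, 27.7% with a rise and 23.8% with a fall in total. Of the 3 scaffolds of the multi-synthetase complex, AIMP1 fell by 0.80 ± 0.10 (log2), AIMP2 rose by 0.34 ± 0.11 and EEF1E1 was not called, and all 3 lost label with half-lives of 3.93, 2.99 and 3.60 h. The cytosolic elongation factor 1 genes EEF1A1, EEF1B2, EEF1D and EEF1G all fell in total, and label decline was called in 1 of the 4. Of these, EEF1A1 encodes the subunit that carries charged tRNA to the ribosome. EEF1A1 has many pseudogene copies and its count is uncertain. Of 8 genes listed around mitochondrial tRNA charging and delivery, 3 rose and 1 fell in total. The list also holds a peptidyl-tRNA hydrolase (PTRH2) and MTRF1, of the release-factor family, which was among those that rose (1.25 ± 0.28). MTFMT, which formylates the initiator, rose (2.89-fold at 8 h, adjusted p = 0.000293 over the chase), and QRSL1, a subunit of the amidotransferase that makes glutaminyl-tRNA, rose by 0.87 ± 0.17. TUFM, the mitochondrial elongation factor, fell by 0.59 ± 0.08.

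Of the 20 amino-acid response genes, 5 rose, 6 fell and 9 were not called in total, and all 20 lost label, near the background of all genes. SLC7A11, the cystine transporter subunit, rose most (0.95 ± 0.16) and its partner SLC3A2 fell most (-0.96 ± 0.11). ATF4 itself stood at 758.3, 766.4, 756.9, 824.1, 905.6, 1020 and 663.1 CPM, highest at 8 h, and was not called (edgeR adjusted p = 0.511). Of 14 measured genes of mitochondrial tRNA processing and modification, label decline was called in 13, and 4 rose and 3 fell in total, again near the background, with CDK5RAP1 (0.97 ± 0.21) and TRMT10C (-1.04 ± 0.10) at the ends. Among 7 synthetase-like and proofreading genes 1 rose, TARSL2 (1.46 ± 0.41), and 3 fell. The cytosolic members with the promoter motif changed in total by 1.01 (CARS), 0.99 (TARS), 0.55 (AARS), 0.37 (GARS), 0.18 (MARS), -0.37 (NARS) and -0.43 (IARS). The changes of CARS and MARS were not called in this fit, and called rises and called falls both occur among the others. Both also occur among searched cytosolic members without the motif, as in FARSA (0.38), SARS (0.32) and QARS (-0.37). DARS and YARS, also called, could not be searched.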

How the data were processed

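The authors deposited raw counts of all reads and of converted (nascent, here labelled) reads for segments of transcript 3′ UTRs. Per the submitters' processing notes, tools included Trim Galore 0.6.5 and bcl2fastq 2.17.1.14, and the genome builds were dm3 and hg19. Aligner, counter and the conversions that make a read labelled: not given in the sources used here. Labelled shares depend on that unstated threshold. GENCODE 29 named 84.9% of 56570 transcripts; segments without a match held 5.65% of reads. Left out were 3056 haplotype segments and 87 genes with counts identical to another gene's. The deposited totals were 7046260 to 27773214 reads a library, with overlapping segments counted again, and drop to the gene reads in the report.

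Labelled counts were fitted against hours over the 7 chase libraries in edgeR 4.0.16 (R 4.3.3, quasi-likelihood, 5 residual degrees of freedom), offset by the gene's own total, for genes with a mean total of at least 50 and 20 labelled reads. Total counts of genes averaging 20 or more were fitted with TMM scaling. Calls use a Benjamini-Hochberg adjusted p under 0.05 over all genes. Half-lives are binomial maximum-likelihood fits of background plus an exponential, the background shrunk with 100 prior reads, with standard errors widened for dispersion above 1. Resolved half-lives have a called decline, a value of 0.25 to 24 h, a log-rate standard error of at most 0.5 and a fitted excess of 10 or more reads at 0 h. Intervals are 95% and limits for 0 counts use 3 counts. CPM use library totals of gene reads. The scripts were tested on simulated data with known changes.

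Members and lists were chosen with earlier results of these data known. All 36 genes may be named. Values in every library are given for the 3 shortest and 3 longest half-lives per compartment, the member without a label test, the 4 largest called total changes each way and the extreme pairs, and other per-library values were chosen after they were seen. Of other lists, genes at the ends that passed a test are named. Alternatives were DESeq2 1.42.0, other scalings, filters, windows and offsets, summed segments and leaving out each library. TMM-scaled folds and the late-against-early coding were added after seeing the data.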

Additional observations from a re-analysis of the deposited data

How the results depend on the processing

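The median half-life of cytosolic synthetases (3.68 h) was 4.16 h with labelled CPM, 7.37 h from the 0 to 2 h libraries (9 resolved), 3.21 h from the 1 to 12 h libraries and 3.54 to 4.28 h with each library left out, longest without the 12 h library. The median half-life of mitochondrial synthetases (2.98 h) was 3.60 h from the 0 to 2 h libraries (3 resolved), 2.38 h from the 1 to 12 h libraries and 2.73 to 3.08 h with each library left out. Their log2 difference over resolved members was -0.47 to -0.28 with each library left out. From the 0 to 2 h libraries it was -1.03, but only between 9 and 3 resolved members, because long and uncertain fits drop out. That value cannot show the sign over all members. Total level calls among cytosolic synthetases went from 6 that rose and 4 that fell to 11 and 2 with library totals alone, and to 5 to 7 and 4 to 5 with each library left out. Those among mitochondrial synthetases (6 rose, 1 fell) ran from 2 to 6 and 1 to 2 with each library left out, 2 and 2 without the 12 h library, and 8 rose with library totals alone and 7 with segments summed. The median total change over 12 h of cytosolic synthetases was 0.31 with library totals alone and 0.05 to 0.20 with each library left out, and that of mitochondrial synthetases 0.20 to 0.34. Members past 1.5-fold at 8 h numbered 2 (cytosolic) and 0 (mitochondrial) with TMM factors, and 3 mitochondrial against the 0 h library alone. Apart from shifts that follow from scaling or from fewer libraries, the cause was not tested. Label calls numbered 19 to 20 and 15 with each library left out. No paired analysis was possible because each condition has 1 library. Depth limits NARS2, PARS2, RARS2 and VARS2 most, with under 100 reads a chase library on average.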
